A study of Mus musculus with 8 samples.

Results

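The hippocampus of transgenic Tg6799 mice was compared between 4 and 8 months of age. Tg6799 is a line that overproduces amyloid beta, the peptide of Alzheimer's plaques. Its transgenes encode mutant human amyloid precursor protein and mutant presenilin 1 and are driven by Thy1 promoter sequence, which is active in neurons. The line thus models the amyloid arm of the disease. Members were chosen by sample description as the arrays of the AD mutant: 2 arrays at 4 months (MT4m) and 2 at 8 months (MT8m), 4 of the 8 arrays of the series. The other 4 arrays held hippocampus of littermates at the same ages (LM4m and LM8m, 2 each). The study's methods name female Tg6799 mice and give no separate sex for the littermates, and the labels name no treatment. Whether the RNA on each array was that of 1 mouse or of a pool is not given in the sources used here, so p-values here cover no more than the spread among these samples, and that spread may be technical. Values are log2 expression values after robust multi-array averaging (RMA), on which a difference of 1 is 2-fold. The age difference is the mean of MT8m minus the mean of MT4m, given with the standard error of a limma model over all 8 arrays.

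In this line amyloid collects in plaques as the mice age, and microglia and astrocytes gather around them. Microglia at plaques switch on Trem2-dependent genes such as Cst7 and Clec7a, and reactive astrocytes make more of the filament protein Gfap. Neurons and astrocytes also run housekeeping programmes that respond quickly to conditions: cholesterol, which cannot enter the brain from blood lipoproteins, is made on site under control of the sterol-sensing SREBP factors, and chaperones of the endoplasmic reticulum and of the cytosol are induced when proteins misfold.

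Transgene and glial markers set 1 array apart from its label. Thy1, which the probe set reads together with any transgene transcript that carries Thy1 sequence, was 11.73 and 11.82 on the MT4m arrays, 11.79 on MT8m replicate 2 and 9.90 on the library labelled MT8m replicate 1, where the littermates spanned 9.53 to 9.96. Cst7, a cysteine protease inhibitor of plaque microglia, was 6.69 and 5.92 on MT4m, 1.75 on the library labelled MT8m replicate 1 and 8.03 on MT8m replicate 2, with littermates at 2.06 to 2.18. Gfap was 8.45 and 8.21, then 7.17 and 9.80, with littermates at 6.99 to 7.31. In all 3 genes the library labelled MT8m replicate 1 therefore lay within or below the littermate range and MT8m replicate 2 did not. For Gfap this holds for 2 of its 3 probe sets, and on the third the library labelled MT8m replicate 1 was 4.23, above the littermates at 3.54 to 3.89 and below MT4m at 5.21 and 5.05. Ttr, made by the choroid plexus, was 10.97 and 10.67 on MT4m and 10.69 and 10.66 on MT8m, below the littermates at 12.43 to 12.83, so in this gene the same library sat with the other MT arrays. The label was kept, and each result is given for both MT8m arrays and for each alone against the 2 MT4m arrays. In the study's published tables of genes the genotype names are exchanged for these arrays, so signs given by genotype run opposite there. The GEO labels are followed here, and Thy1 goes with them on 3 of the 4 MT arrays.

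**Figure D1:**
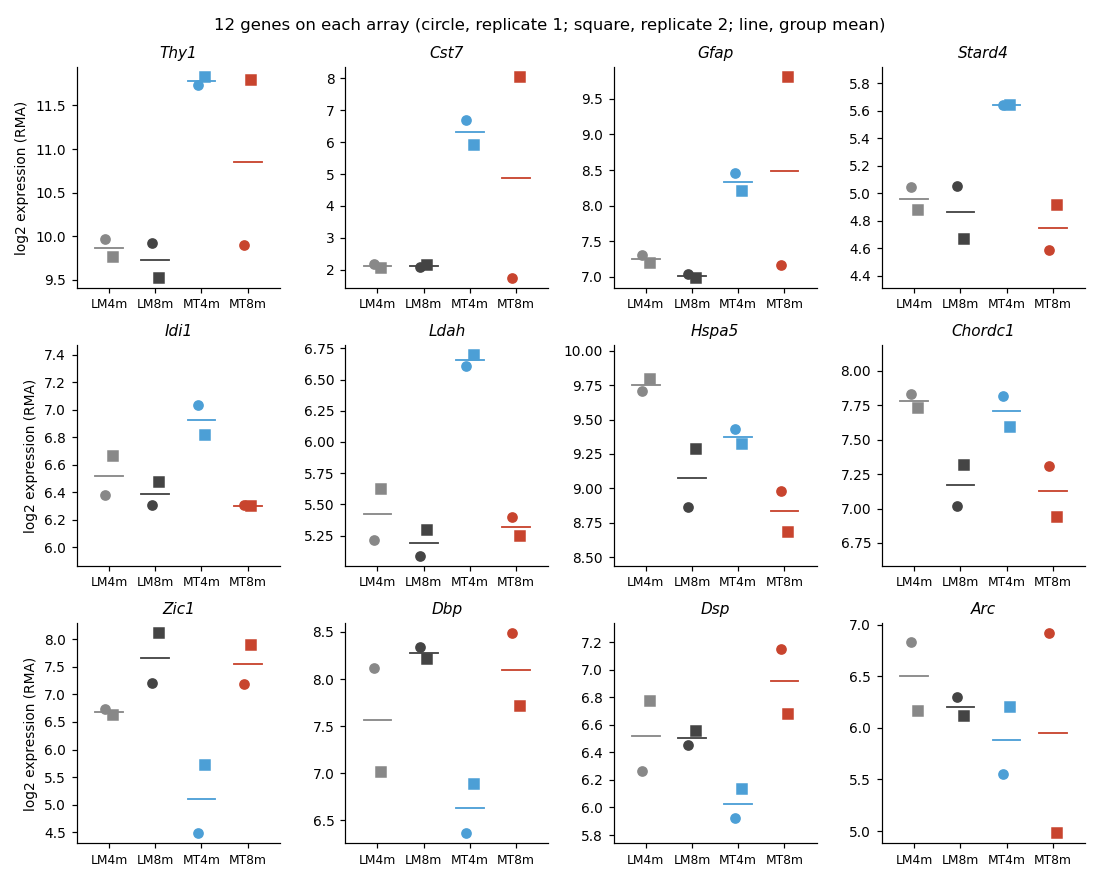
Expression (log2 RMA, vertical axis) of 12 genes on each array of the 4 groups, with replicate 1 as a circle, replicate 2 as a square and the group mean as a line. In Thy1, Cst7 and Gfap the 2 MT8m arrays lie far apart, at 1.75 and 8.03 in Cst7, while in Stard4, Idi1 and Ldah they lie together below both MT4m arrays.

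Tissue markers were those of hippocampus on all 4 MT arrays. Neurod6, a factor of pyramidal neurons, was 8.60 and 8.71 on MT4m and 8.52 and 8.38 on MT8m, and Prox1 of dentate granule neurons was 5.66 and 5.01, then 4.86 and 5.55. Wfs1, abundant in pyramidal cells of field CA1, was 6.36 and 6.11 on MT4m, 7.70 on the library labelled MT8m replicate 1 and 6.12 on MT8m replicate 2. The pituitary hormone Prl reached 7.29 on MT4m replicate 1 against 2.35, 3.00 and 3.51 on the other MT arrays. The 2 arrays differed by more than 1 in 331 of 18193 genes in MT8m and in 40 in MT4m.

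No probe set passed for the age difference in MT. Limma called 0 of 45037 probe sets (0%) at an adjusted p under 0.05, the smallest adjusted p was 0.137, and 2567 (5.70%) had an unadjusted p under 0.05. With 2 arrays per group a second, descriptive measure was used: a gene was counted as not overlapping when both MT8m arrays lay on the same side of both MT4m arrays. Of 18193 genes, each read by its brightest probe set, 18.4% were not overlapping and higher in MT8m and 17.4% not overlapping and lower, and 2.98% and 2.80% had an unadjusted limma p under 0.05 in those directions. The median difference over all genes was 0.0044. Counts in the gene groups below are to be read against these shares.

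Genes of cholesterol synthesis were lower in MT8m than in MT4m. Of 22 members measured, 16 were not overlapping and lower and none was not overlapping and higher, beside 17.4% and 18.4% of all genes, and 9 had an unadjusted limma p under 0.05, all lower. None passed after adjustment over all probe sets. The median difference of the list was -0.32, and it was -0.32 for the library labelled MT8m replicate 1 alone and -0.25 for MT8m replicate 2 alone. In bulk tissue, fewer cells of a type and less RNA per cell cannot be told apart.

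The members are placed here by their step in the pathway. Hmgcs1, which makes the HMG-CoA that the pathway starts from, was 9.93 and 9.88 on MT4m and 9.34 and 9.58 on MT8m, a difference of -0.45 ± 0.16 (SE), and its 5 probe sets ranged from -0.57 to 0.02. Idi1, the isomerase that readies isoprene units, was 7.04 and 6.82, then 6.31 and 6.30, a difference of -0.62 ± 0.15 (limma adjusted p = 0.777). Both MT8m values of Idi1 lie at or just under the lower end of the littermate range of 6.31 to 6.66, and both MT4m values above it. Fdps, which joins isoprene units to farnesyl diphosphate, was 5.92 and 6.03, then 5.32 and 5.66. Fdft1, squalene synthase, was 8.56 and 8.31, then 7.82 and 7.80, a difference of -0.62 ± 0.16 (limma adjusted p = 0.826). Sqle, the epoxidase that follows it, was 7.16 and 7.10, then 6.64 and 6.66, with littermates at 6.46 to 6.63. From Idi1 to Sqle both MT8m arrays were thus below both MT4m arrays at each of these 4 enzymes.

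The enzymes that trim lanosterol to cholesterol lay the same way. Msmo1, a sterol methyl oxidase, was 8.57 and 8.26 on MT4m and 7.58 and 7.65 on MT8m, a difference of -0.80 ± 0.20 (limma adjusted p = 0.798), while its other probe set differed by 0.02. Tm7sf2, a sterol reductase, was 3.93 and 4.31, then 3.67 and 3.29. Cyp51, the lanosterol demethylase, differed by -0.45, Sc5d, a sterol desaturase, by -0.47, and Nsdhl by -0.34. The sterol sensors Insig1 and Insig2 differed by -0.31 and -0.24.

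The largest difference of the list was that of Stard4, a carrier that moves sterols between membranes. Stard4 was 5.64 on both MT4m arrays and 4.58 and 4.91 on the MT8m arrays, a difference of -0.89 ± 0.17, or 1.85-fold lower (limma adjusted p = 0.747). With MT8m replicate 2 alone it was -0.73 ± 0.19. Its 3 probe sets gave -0.89, -0.52 and -0.02, so the size holds for the brightest of them. The 6 overlapping members were the early enzymes Mvk, Pmvk and Mvd, the cyclase Lss, and Srebf2 and Scap, the factor and the escort that drive the pathway. Lss was 4.55 and 4.49 on MT4m, 4.47 on the library labelled MT8m replicate 1 and 5.24 on MT8m replicate 2. Srebf2 and Scap differed by 0.15 and 0.24.

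In littermates 4 of the 22 cholesterol members were not overlapping and lower at 8 months, beside 17.2% of all genes, and the median difference was -0.15. Both MT4m arrays lay above all 4 littermate arrays in 11 of the 22 members, beside 7.50% of all genes. That count and the age difference share the MT4m arrays. Stard4 differed by -0.10 with age in littermates, and the difference between the 2 age differences had an unadjusted limma p of 0.0111 and did not pass after adjustment.

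**Figure D2:**
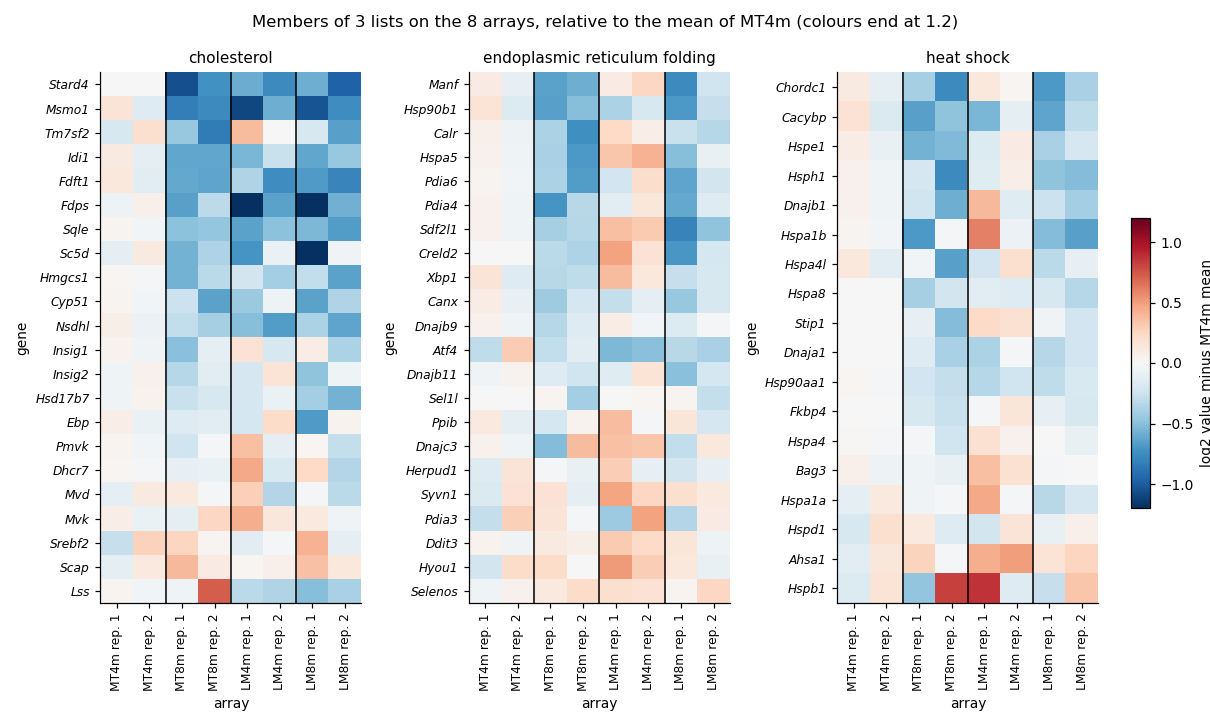
Each gene's log2 RMA value minus the MT4m mean on all 8 arrays (columns) for the cholesterol, endoplasmic reticulum folding and heat shock lists (rows), with colours that end at 1.2 in either direction. Most cholesterol genes are below the MT4m mean on both MT8m arrays and many also on the littermate arrays, while most chaperones are lower on the 8-month arrays of both genotypes.

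Chaperones of the endoplasmic reticulum were also lower at 8 months, in MT and in littermates. Of 22 members, 12 were not overlapping and lower in MT8m and 2 higher, beside 17.4% and 18.4% of all genes, and 7 had an unadjusted limma p under 0.05, all lower. The median difference was -0.23, with -0.33 for the library labelled MT8m replicate 1 and -0.22 for MT8m replicate 2. In littermates 13 members were not overlapping and lower at 8 months, beside 17.2% of all genes, with a median of -0.31.

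The lumenal chaperones come first. Hspa5 (BiP), the chief chaperone of the compartment, was 9.43 and 9.32 on MT4m and 8.98 and 8.68 on MT8m, a difference of -0.54 ± 0.17 (limma adjusted p = 0.869). In littermates Hspa5 differed by -0.68. Hsp90b1, the compartment's Hsp90, was 9.22 and 8.90, then 8.41 and 8.54, although its other probe set differed by -0.01. Calr, a chaperone of glycoproteins that also binds calcium, was 9.35 and 9.23, then 8.92 and 8.56, and its partner Canx differed by -0.32. All 4 were lower on both MT8m arrays than on both MT4m arrays. The disulphide isomerases Pdia4 and Pdia6 differed by -0.52 ± 0.20 and -0.53 ± 0.20.

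Manf, a secreted stress-induced factor, was 7.52 and 7.31 on MT4m and 6.78 and 6.83 on MT8m, a difference of -0.61 ± 0.18, with -0.68 in littermates. Sdf2l1, a partner of Hspa5, was 4.93 and 4.82, then 4.47 and 4.53, a difference of -0.37 ± 0.14 beside -0.98 in littermates. Creld2 was 5.23 and 5.24, then 4.91 and 4.87. The 2 members not overlapping and higher were Ddit3 (CHOP), a factor of the stress response, and Selenos, which differed by 0.09 and 0.17. Dnajc3, a co-chaperone, was 6.86 and 6.75 on MT4m, 6.29 on the library labelled MT8m replicate 1 and 7.18 on MT8m replicate 2, and is 1 of the 8 overlapping members.

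Promoters of these chaperones are known for the endoplasmic reticulum stress element, read by the stress factor Atf6 together with NF-Y. The element, spelled CCAAT and CCACG with 9 bases of any kind between them, was searched on both strands in the 250 bases before each start of the RefSeq annotation of GRCm38.p6. It was found in 37 of 32851 promoters (0.113%), which belong to 35 of 27025 genes (0.13%). Of the 20 list genes that have an entry, 8 had it: Hspa5, Hsp90b1, Calr, Canx, Pdia6, Creld2, Dnajc3 and Syvn1. Of these 8 genes, 6 were not overlapping and lower in MT8m, beside 12 of all 22 list members and 17.4% of all genes. Dnajc3 and Syvn1 were the others. The list was written by hand and such chaperones are known for the element, so its presence is no independent evidence. The matches are shown as a description. They are written 5′ to 3′ along the gene's strand, with the fixed letters of the element in capitals and CGTGG before ATTGG where the element runs backwards:
Hspa5, chr2:34772025-34772043, plus strand: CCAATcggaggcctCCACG
Hsp90b1, chr10:86705638-86705656, minus strand: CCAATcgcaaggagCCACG
Hsp90b1, chr10:86705533-86705551, minus strand: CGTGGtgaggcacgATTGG
Calr, chr8:84847075-84847093, minus strand: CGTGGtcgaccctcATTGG
Canx, chr11:50325800-50325818, minus strand: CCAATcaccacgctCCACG
Pdia6, chr12:17266491-17266509, plus strand: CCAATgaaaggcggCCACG
Creld2, chr15:88819520-88819538, plus strand: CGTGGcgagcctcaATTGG
Dnajc3, chr14:118937827-118937845, plus strand: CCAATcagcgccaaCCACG
Syvn1, chr19:6046532-6046550, plus strand: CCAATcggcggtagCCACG

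A match is a description of these letters and not of a bound factor. Whole, the Hspa5 promoter at chr2:34771840-34772089 (plus strand) shows its match 65 bases before the start, downstream of further CCAAT and ATTGG letters in the same window:
Hspa5: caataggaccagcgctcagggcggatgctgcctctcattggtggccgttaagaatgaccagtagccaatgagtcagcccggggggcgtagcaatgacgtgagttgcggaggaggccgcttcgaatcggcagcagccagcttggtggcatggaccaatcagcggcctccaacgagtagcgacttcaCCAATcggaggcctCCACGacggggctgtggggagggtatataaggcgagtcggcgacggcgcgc

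Cytosolic and mitochondrial heat shock proteins were lower in MT8m as well. Of 18 members, 11 were not overlapping and lower and none higher, beside 17.4% and 18.4% of all genes, and 5 had an unadjusted limma p under 0.05. The median difference was -0.29, with -0.20 for the library labelled MT8m replicate 1 and -0.28 for MT8m replicate 2. In littermates 12 members were not overlapping and lower, beside 17.2% of all genes, and the median was -0.26. Over the 3 lists the adjusted limma p of the members ran from 0.747 to 0.994.

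Chordc1, a partner of Hsp90, was 7.82 and 7.59 on MT4m and 7.31 and 6.94 on MT8m, a difference of -0.58 ± 0.17 beside -0.61 in littermates. Hspe1, the mitochondrial co-chaperonin, was 8.33 and 8.14, then 7.66 and 7.71, a difference of -0.55 ± 0.15 (limma adjusted p = 0.838). Hsph1, an exchange factor of Hsp70, was 9.65 and 9.54, then 9.39 and 8.83. In each of the 3 both MT8m values lie under both MT4m values, with the wider spread in MT8m for Hsph1 and Chordc1. Hspa8, the constitutive Hsp70, was 11.54 on both MT4m arrays and 11.14 and 11.32 on MT8m. Dnajb1, Hsp90aa1 and Stip1 of the same folding cycle differed by -0.41, -0.25 and -0.31. The strongly inducible Hspa1a and Hspa1b overlapped between the ages, as did the small heat shock protein Hspb1 at 5.10 and 5.42 on MT4m, 4.78 on the library labelled MT8m replicate 1 and 6.08 on MT8m replicate 2.

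The heat shock element, spelled GAA, TTC and GAA with 2 bases of any kind between neighbours, was searched on both strands. It was in 153 promoters (0.466%), those of 0.514% of all genes, and in those of 2 of 16 list genes, Hspe1 and Hspd1. Hspe1 and Hspd1 lie head to head on chromosome 1 and share the same letters, which hold 2 overlapping matches:
Hspe1, chr1:55088059-55088071, plus strand: TTCtaGAAccTTC
Hspe1, chr1:55088064-55088076, plus strand: GAAccTTCcgGAA

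Hspe1 was not overlapping and lower, as above, and its neighbour Hspd1, the chaperonin itself, overlapped between the ages. The sterol regulatory element, spelled TCACNCCAC, was in 346 promoters (1.05%), those of 1.225% of all genes. Of 19 cholesterol genes with an entry, it was in the promoter of Hmgcs1, at chr13:119690214-119690222.

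The genes with the smallest p-values were named without regard to function, 10 in each direction, each gene read by its brightest probe set. Dimmer probe sets of Ldah (-1.86), Dbndd2 (1.26) and Ddx6 (-1.69) had smaller p-values, with a limma adjusted p of 0.137 each. Ldah, a hydrolase of lipid droplets, was lowest by p among the brightest probe sets. It was 6.61 and 6.69 on MT4m and 5.40 and 5.25 on MT8m, a difference of -1.33 ± 0.16, or 2.52-fold lower (limma adjusted p = 0.326). Both MT8m values lie within the littermate range of 5.09 to 5.63 and both MT4m values above it, and the age difference in MT minus that in littermates was -1.10 ± 0.23. The 6 probe sets of Ldah ranged from -1.86 to 0.20. Caap1, an inhibitor of caspase activity, was 4.76 and 4.54, then 3.67 and 3.60, a difference of -1.02 ± 0.13 (limma adjusted p = 0.344).

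Of the other lower genes, Nts, the neuropeptide neurotensin, was 3.92 and 3.68 on MT4m and 2.87 on both MT8m arrays. Dcc, the netrin receptor, was 5.95 and 5.90, then 5.33 and 5.17. Col11a1, a fibrillar collagen chain, was 4.38 and 3.74, then 2.86 and 2.62. Nfil3, a repressor tied to the circadian clock, was 3.67 and 3.73, then 3.13 and 2.96, with an equal age difference in littermates (-0.66 and -0.65). Stard4, Tmtc4, Zdbf2 and Popdc3 complete the 10. The age difference in littermates was below 0 in all 10, from -0.01 for Col11a1 to -0.65 for Nfil3, and none passed there.

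Zic1, a zinc finger factor of midline and thalamic neurons, had the largest difference of the 10 higher genes. It was 4.48 and 5.72 on MT4m and 7.19 and 7.89 on MT8m, a difference of 2.44 ± 0.43, or 5.42-fold higher (limma adjusted p = 0.747), and 2.79 with MT8m replicate 2 alone. The littermates were at 6.73 and 6.62 at 4 months and 7.20 and 8.10 at 8 months, so the 2 MT4m arrays are the low ones. Prmt1, an arginine methyltransferase, was 5.81 and 6.12, then 6.79 and 6.71. Vti1b, a fusion protein of endosomes, was 7.15 and 7.33, then 8.10 and 7.85. Map3k7, the kinase TAK1, was 5.06 and 4.63, then 5.67 and 5.72, but its 6 probe sets ran from -0.13 to 0.85.

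B230303A05Rik was 2.42 and 2.88 on MT4m and 3.88 and 3.83 on MT8m, a difference of 1.21 ± 0.19 where littermates gave -0.36. The remaining higher genes were Ovgp1, Col6a3, a collagen VI chain, Trappc3, B4galt1 and Rab34. In 9 of the 10 higher genes both MT4m arrays lay outside the littermate range, and in 7 of the 10 lower genes. Those counts share the MT4m arrays with the age difference. The share of all genes outside the range was not counted, so they are not read as a result. Age differences in littermates had the same sign in 5 of the 10 higher genes.

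**Figure D3:**
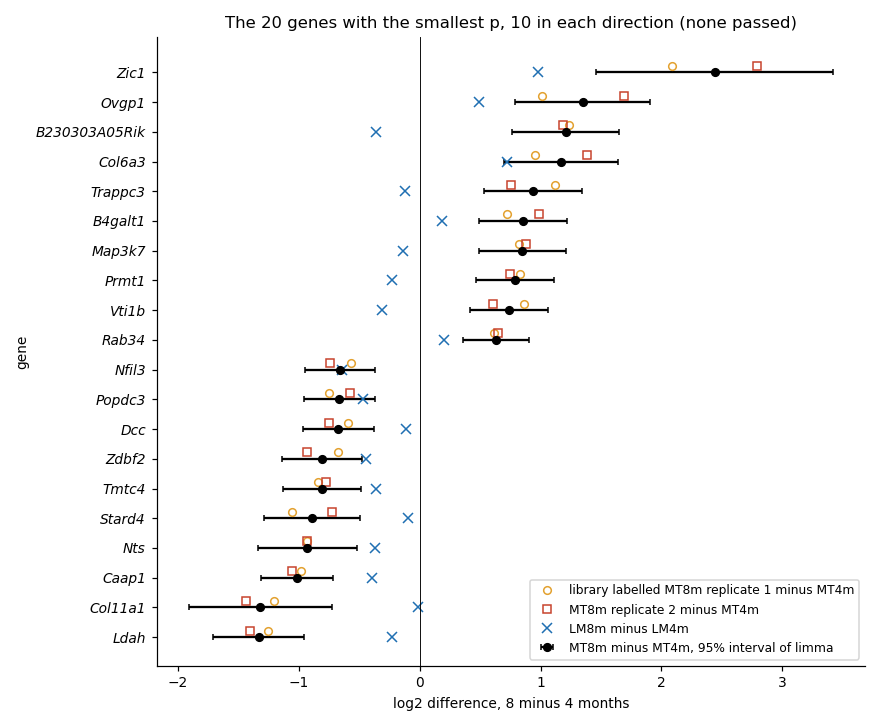
Age difference (log2 RMA, horizontal axis) of the 10 lower and 10 higher genes with the smallest limma p, with the 95% interval of the limma model over all 8 arrays, each MT8m array against the MT4m mean as open symbols and the littermate age difference as a cross. Ldah lies at -1.33 and Zic1 at 2.44, and none of the genes passed after adjustment.

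Microglial genes split the 2 MT8m arrays instead of separating the ages. Each MT8m array was viewed alone because the 2 were known to disagree in Thy1 and glial genes. The glial counts here and below therefore describe that disagreement and are no independent evidence of it. Of 28 genes of plaque microglia, 24 were below both MT4m arrays on the library labelled MT8m replicate 1 and above both on MT8m replicate 2, beside 10.1% of all genes, and none went the other way. The median difference was -0.01 with both arrays, -0.67 for the library labelled MT8m replicate 1 and 0.94 for MT8m replicate 2. The library labelled MT8m replicate 1 lay within the littermate range in 19 of the 28, beside 57.9% of all genes, and MT8m replicate 2 above all littermates in 27, beside 20.7%. Both MT4m arrays lay above all littermates in 19, beside 7.50%.

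Receptors of the plaque response show it gene by gene. Trem2, the lipid receptor, was 5.52 and 5.34 on MT4m, 3.32 on the library labelled MT8m replicate 1 and 6.66 on MT8m replicate 2, and its adaptor Tyrobp was 9.03 and 8.30, then 6.41 and 9.51. Clec7a, a receptor for sugars of microbial walls, was 6.01 and 4.34, then 2.86 and 7.08, with littermates at 2.63 to 2.75. The level on the library labelled MT8m replicate 1 was thus near that of littermates in Clec7a, and that on MT8m replicate 2 was the highest of the 8. Gpnmb, a glycoprotein of lipid-laden phagocytes, was the 1 member not overlapping and higher, at 1.99 and 1.95, then 2.20 and 2.47. These values lie under 2.475, the median of the probe set means, and its other probe set differed by 0.15.

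Homeostatic microglial genes split in the same direction. Of 16, 14 were below MT4m on the library labelled MT8m replicate 1 and above it on MT8m replicate 2, again beside 10.1%, with medians of -0.79 and 0.58. Csf1r, the receptor microglia need to survive, was 9.68 and 9.47, then 8.49 and 10.36, and the purinergic receptor P2ry12 was 5.64 and 5.69, then 4.44 and 5.93. The other 2 were Mertk and Fcrls. Mertk, a receptor for dying cells, was 6.34 and 6.27, then 6.28 and 6.59, so the library labelled MT8m replicate 1 lay between the MT4m arrays. Fcrls was 4.88 and 4.45 on MT4m and 3.97 and 3.67 on MT8m, lower on both, with a difference of -0.84 ± 0.21. Complement and Fc receptor genes split in 8 of 9. C1qa, a subunit of the first complement component, was 8.16 and 8.06, then 6.97 and 9.24, and C1qb 8.47 and 7.68, then 6.11 and 9.61.

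Reactive astrocyte genes were high on MT8m replicate 2. Of 19 measured, 12 split in that direction, beside 10.1% of all genes, and the median was -0.27 for the library labelled MT8m replicate 1 and 1.47 for MT8m replicate 2. Vim, a filament protein like Gfap, was 7.02 and 7.10 on MT4m, 5.80 on the library labelled MT8m replicate 1 and 9.28 on MT8m replicate 2. Osmr, the oncostatin M receptor, was 4.24 and 3.83, then 2.88 and 6.42. Lcn2, an iron-binding secreted protein, was 1.56 and 1.67, then 1.63 and 3.52, so the library labelled MT8m replicate 1 lay between the MT4m values. Steap4 was the 1 member not overlapping and lower.

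**Figure D4:**
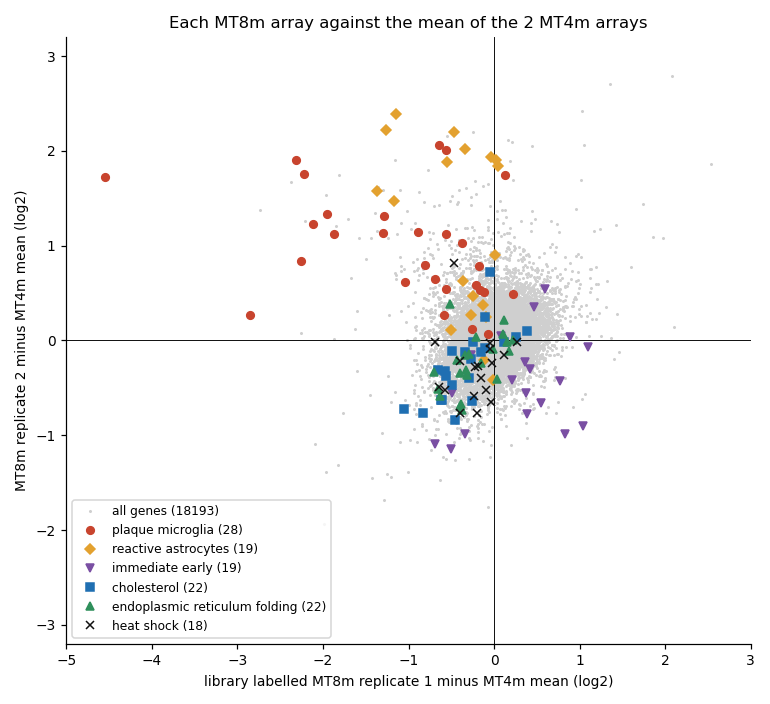
Each gene's value on the library labelled MT8m replicate 1 (horizontal) and on MT8m replicate 2 (vertical), both as log2 RMA minus the MT4m mean and so sharing the 2 MT4m arrays, with all 18193 genes in grey and 6 gene lists in colour. Most plaque microglia and reactive astrocyte genes lie up and to the left, with list medians of -0.67 and 0.94 for plaque microglia. Most cholesterol and chaperone genes lie below 0 on both axes.

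Antigen presentation and interferon genes followed the glial split in part. Of 14 antigen presentation genes 8 split in that direction, beside 10.1% of all genes. B2m, the light chain of class I molecules, was 8.49 and 8.43 on MT4m, 7.37 on the library labelled MT8m replicate 1 and 9.70 on MT8m replicate 2. Tap2, a peptide transporter of that pathway, was higher on both MT8m arrays, at 2.21 and 2.28, then 2.68 and 2.93, as were H2-Aa, a class II chain (3.36 and 3.60, then 3.85 and 4.10), and H2-DMa. The 4 probe sets of H2-Aa ranged from -0.10 to 0.50, and the 2 of H2-DMa gave -0.07 and 0.16. Of 16 interferon response genes 8 split the same way, 1 split the other way and Irf7, a factor of that response, was not overlapping and higher. The restriction factor Ifitm3 was 5.19 and 5.64, then 5.63 and 7.11, so only MT8m replicate 2 lay above both MT4m arrays.

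Immediate early genes, which neurons switch on within minutes of firing, gave the opposite split. Of 19, 7 were above both MT4m arrays on the library labelled MT8m replicate 1 and below both on MT8m replicate 2, beside 11.6% of all genes, and none split the other way. Arc, which acts at synapses, was 5.56 and 6.20 on MT4m, 6.92 on the library labelled MT8m replicate 1 and 4.98 on MT8m replicate 2. The transcription factor Egr1 was 8.36 and 9.10, then 9.56 and 7.74, and the nuclear receptor Nr4a1 6.30 and 6.80, then 7.32 and 6.12. These 3 had their highest MT value on the library labelled MT8m replicate 1 and their lowest on MT8m replicate 2.

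A further 5 immediate early genes were lower on both MT8m arrays and 2 higher, beside 17.4% and 18.4% of all genes. Fosl2, a partner of Jun, was 6.80 and 6.41, then 5.91 and 5.51, a difference of -0.89 ± 0.19 beside -0.82 in littermates, although its other probe set differed by 0.25. Nr4a3 was 8.52 and 8.47, then 8.16 and 7.51. Btg2, an antiproliferative factor, was higher, at 4.51 and 4.75, then 5.23 and 5.17. In littermates 9 of the 19 were not overlapping and lower at 8 months, beside 17.2% of all genes.

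Synaptic genes also split, 6 of 18 in the direction of the immediate early genes, beside 11.6%. Dlg4, the scaffold PSD-95, was 6.37 and 6.81 on MT4m, 7.60 on the library labelled MT8m replicate 1 and 6.85 on MT8m replicate 2, higher on both. The 3 probe sets of Dlg4 ranged from -0.16 to 0.64. The precursor of enkephalins, Penk, was among the genes with the largest gap within MT8m, at 6.35 and 5.67, then 7.42 and 5.81.

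Lists of hippocampal neurons differed among themselves. Of 12 dentate gyrus genes 6 were not overlapping and higher in MT8m and 1 lower, beside 18.4% and 17.4%. The median was 0.22 (-0.04 and 0.22 for the 2 arrays), but 0.07 with the mean of each gene's probe sets. In littermates 5 were not overlapping and lower, beside 17.2% of all genes. Dsp, a desmosomal protein of granule neurons, was 5.92 and 6.13 on MT4m and 7.15 and 6.68 on MT8m. The 3 probe sets of Dsp ranged from 0.10 to 0.89. Lct was 5.71 and 5.70, then 7.01 and 6.06. Genes of Ammon's horn had a median of 0.02. The interneuron list had a median of -0.31, but -0.07 for the library labelled MT8m replicate 1 and -0.52 for MT8m replicate 2, and -0.13 with the mean of each gene's probe sets. Of its 14 genes 4 were not overlapping and lower and 2 higher, and among the lower ones was the stress peptide Crh, at 3.16 and 2.76, then 2.25 and 2.14. Dcx, a microtubule protein of newborn neurons, was 3.55 and 3.65, then 2.95 and 3.11, but its 4 probe sets ranged from -0.57 to 0.04. Of 19 neurogenesis genes 6 were lower on both MT8m arrays, beside 17.4% of all genes.

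Of 17 circadian clock genes 6 were not overlapping and higher and 3 lower, beside 18.4% and 17.4%, and the median was 0.21 for the library labelled MT8m replicate 1 and 0.02 for MT8m replicate 2. Dbp, a clock output factor, was 6.36 and 6.89 on MT4m and 8.49 and 7.71 on MT8m, a difference of 1.47 ± 0.37, and its 2 probe sets gave 1.47 and 1.63. The hours of tissue collection are not given in the sources used here. Of 16 glucocorticoid response genes 5 were higher and 3 lower, beside the same shares, with medians of -0.03 and 0.39 for the 2 arrays. Plin4, a lipid droplet coat protein of that list, was 3.35 and 3.21, then 3.73 and 5.34, so most of its difference came from MT8m replicate 2.

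Of 15 amyloid processing genes 6 were not overlapping and higher and 1 lower, beside 18.4% and 17.4% of all genes. The median was 0.06, and 0.04 with the mean of each gene's probe sets. Aph1a, a subunit of gamma-secretase, was 4.50 and 4.78, then 5.32 and 5.17. Abcb1a, the efflux pump of brain endothelium, was 3.65 and 3.92, then 4.50 and 4.72. Of 12 endothelial genes 4 were higher and 1 lower, beside the same shares, with a median of 0.16 (0.10 with the mean of each gene's probe sets).

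Cells at the edge of the dissection and of neighbouring regions were looked for by their markers. The median was -0.04 for 22 choroid plexus genes, with 3 not overlapping and higher and 5 lower, while in littermates 11 were not overlapping and higher, beside 12.3% of all genes. Kcnj13, a potassium channel of that epithelium, was 3.51 and 3.57 on MT4m and 3.61 and 3.21 on MT8m, with littermates at 6.26 to 7.87. Of 16 ependymal genes 6 were not overlapping and higher and 1 lower, beside 18.4% and 17.4%, with a median of 0.09, and Cdhr4, a cadherin-related protein, was 3.37 and 3.13 on MT4m and 3.57 and 3.96 on MT8m. Of 12 thalamic genes 4 were higher and none lower, with a median of -0.02, and these were Zic1, described above, Prkcd, a protein kinase C, at 5.18 and 4.94, then 5.29 and 6.01, Adarb1 and Ramp3. The 3 probe sets of Adarb1 ranged from -0.37 to 0.20. Meninges had 3 in each direction of 16 (median 0.09), striatum 2 in each direction of 10 (0.04), and neocortex 1 higher and 4 lower of 11 (-0.14). The part of such cells in the differences above was not tested. Dcn, a proteoglycan of meningeal cells, was 8.25 and 7.47, then 7.13 and 6.70, and its 2 probe sets gave -0.95 and -0.07. Myelin genes had a median of -0.02, oligodendrocyte precursors -0.02 and oxidative phosphorylation -0.04, with 3, 2 and 3 members not overlapping in each direction.

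**Figure D5:**
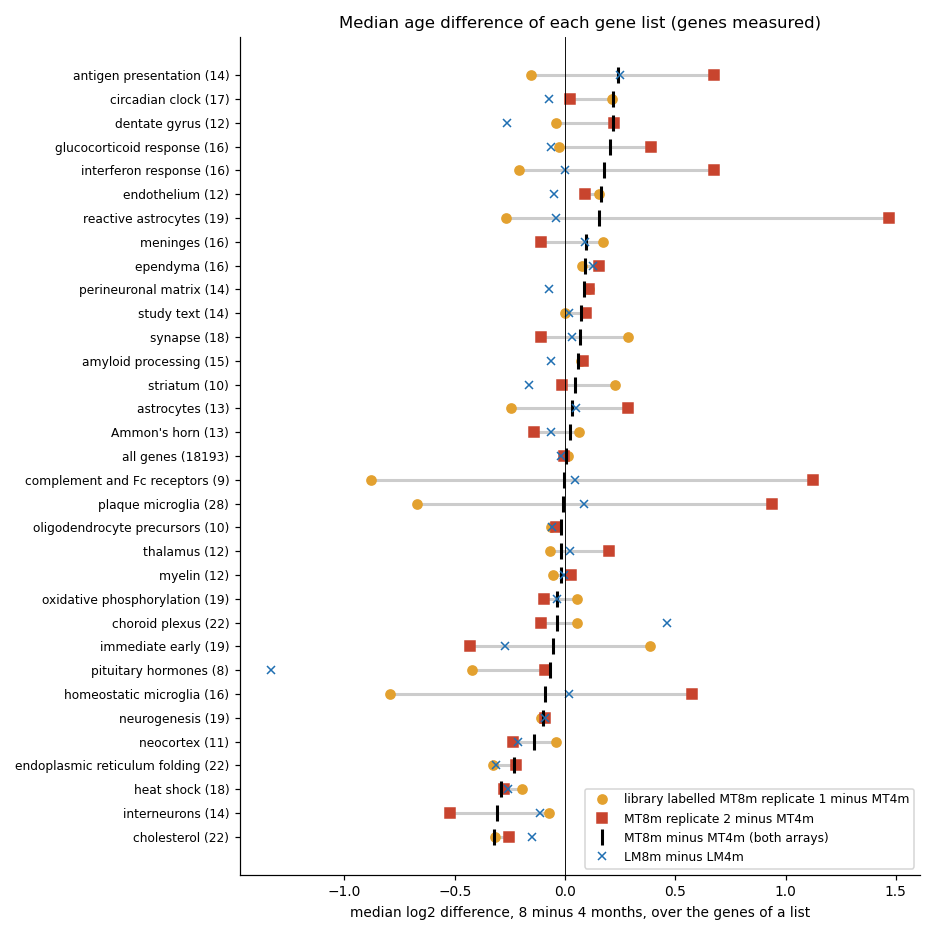
Median difference from the MT4m mean (log2 RMA, horizontal axis) of the gene lists with at least 8 measured genes and of all genes, for the library labelled MT8m replicate 1 (circle), MT8m replicate 2 (square) and both (bar), with the littermate age difference as a cross. Microglial and astrocyte lists lie on opposite sides of 0 on the 2 arrays, and the cholesterol, endoplasmic reticulum folding and heat shock lists lie below 0 on both, at -0.32, -0.23 and -0.29 for both arrays together.

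Genes that the study's text discusses were given separately, and since they were chosen on these samples they are no independent evidence of a direction. Of 14 measured, 2 were not overlapping and lower and 2 higher, beside 17.4% and 18.4% of all genes. The higher ones were Sfpq, a splicing factor, at 7.92 and 7.96 on MT4m and 8.28 and 8.25 on MT8m, and Hip1, an endocytic adaptor, at 4.29 and 4.12, then 4.40 and 4.57. The 6 probe sets of Sfpq ranged from -0.61 to 0.32 and the 5 of Hip1 from -0.25 to 0.35, so neither direction holds over all probe sets. Arrdc3, an arrestin-like adaptor, was 6.54 and 6.29 on MT4m and 5.54 and 6.10 on MT8m, and Ppp1r3c, which targets a phosphatase to glycogen, was 8.24 and 8.07, then 7.49 and 7.88. Their age differences in littermates were -0.49 and -0.52. By RT-PCR the study reported Arrdc3 rising with age in both genotypes, and Ppp1r3c rising in littermates and falling in MT. It reported Sfpq falling with age in MT. On the arrays only Ppp1r3c in MT ran the same way, with Sfpq read by its brightest probe set. The chemokine Cx3cl1 was 7.53 and 7.62 on MT4m, 8.07 on the library labelled MT8m replicate 1 and 7.32 on MT8m replicate 2, and the alpha-secretase Adam10 was 7.95 and 7.66, then 7.36 and 7.88. Both of these overlapped between the ages.

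The age difference was set against that in littermates over all probe sets. Limma called 0 of 45037 (0%) for the difference between the 2 age differences, with a smallest adjusted p of 0.44 and 1162 (2.58%) at an unadjusted p under 0.05, and 0 (0%) for age in littermates, with 1554 (3.45%). No gene named here was therefore shown to differ with age in MT more than in littermates. Across 18193 genes the age differences of the 2 genotypes, which come from separate arrays normalised together, had the same sign in 56.0% and a Pearson correlation of 0.259.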

How the data were processed

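Total RNA of hippocampus was hybridised to 8 Affymetrix mouse arrays, of which the 4 MT arrays are described. The deposited values are log2 expression values that the authors made by RMA with the R package affy, whose version is not given in the sources used here. Their number of arrays limits the precision. Of 45101 probe sets 64 controls were left out. GEO's platform annotation gave 1 gene symbol to 34945 probe sets, several to 932 and none to 9160. A gene was read by its probe set with the highest mean, and 37 members of the gene lists had no probe set of that name. Limma 3.58.1 in R 4.3.3 fitted the 4 group means over all 8 arrays with an empirical Bayes prior and Benjamini-Hochberg adjustment over 45037 probe sets, after a check on simulated data.

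Named were the 10 genes in each direction with the smallest p, the genes with the largest gap within MT8m, and genes of the study's text. List members were named by the largest absolute difference among those not overlapping. Further list members are given as values, chosen after they were seen. The members, the lists and the named-gene rule were chosen with earlier results of these data known. Alternatives were loess normalisation, a filter on dim probe sets, a trended robust prior, 1 probe set per gene, the mean of a gene's probe sets, MT arrays alone, replicate blocks and leaving out each array. Promoter sequence came from RefSeq, GRCm38.p6.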

Additional observations from a re-analysis of the deposited data

How the results depend on the processing

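With every other choice kept, limma called 0 probe sets for age in MT after loess normalisation, without dim probe sets, with 1 probe set per gene and with the 4 MT arrays alone. A trended robust prior called 2, both lower, of Ldah and Ddx6 (adjusted p = 0.0418 for each). Leaving out 1 array gave 0 to 2 calls for age in MT, 0 for age in littermates and 0 to 1 for the difference between the 2. The calls came without MT8m replicate 2, where Scd2 (-5.29, limma adjusted p = 0.000235) and Cst7 (-4.55, limma adjusted p = 0.0135) were lower and Scd2 passed for the difference too. That Scd2 probe set read 2.96 on the library labelled MT8m replicate 1, while the other 2 of the gene gave -0.29 and -0.32 in the same fit, so its call rests on 1 probe set on 1 array. An MT8m group of 1 array is assumed to vary like the other groups. Without MT4m replicate 1, 1216 probe sets had an unadjusted p under 0.05 in place of 2567.

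The MT titles share the numbers 3 and 4, and same-numbered MT arrays deviated with a correlation of -0.174 and littermate arrays with 0.206, over 2 pairs each, so the numbers were not taken to pair the arrays. The replicate block gave 0 calls in all 3 comparisons. The crossed block, chosen after seeing the data, gave 2 calls for age in MT, 3 in littermates and 1 for the difference.

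The list median stayed below 0 under all 7 alternatives for cholesterol (-0.355 to -0.220), endoplasmic reticulum folding (-0.328 to -0.216) and heat shock (-0.293 to -0.197). Where an array was left out this sign was fixed beforehand, since most members of each list were not overlapping and lower. With all arrays kept the medians were -0.32 to -0.22, -0.23 to -0.22 and -0.29 to -0.26. Of 33 list medians, 19 changed sign without 1 or the other MT8m array and 5 under another scaling, probe set choice or filter. Of 154 named genes, 4 changed sign with all arrays kept and 25 without an MT8m array. Genes named because their groups did not overlap could not change sign when an array was left out. Causes were not tested.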
